A study of Mus musculus with 16 samples.

Results

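The 43 genes described here encode enzymes that place or remove methyl and acetyl groups on histones, or core subunits of such an enzyme complex. They were chosen by name from the methyltransferases and demethylases of histone H3, the histone deacetylases and the histone acetyltransferases, without being all of them, and all 43 were found among the 26625 genes of the table. The samples were medial prefrontal cortex (mPFC) of 16 adult male C57BL/6 mice, and RNA was read as Nanopore cDNA. The study asked how lowering Kdm7a, a histone demethylase gene, affects morphine reward memory. Ctrl + Saline (n = 3) and Ctrl + Morphine (n = 4) mice carried a virus with a negative control hairpin. The virus of Kdm7a-shRNA + Saline (n = 5) mice and of the 4 Kdm7a-shRNA + Morphine mice carried a hairpin against Kdm7a. Morphine or saline was given during place conditioning, and tissue was taken on the seventh day of withdrawal. All 4 groups shared the injection of an adeno-associated virus into the mPFC, EGFP under a CMV promoter and a hairpin under a U6 promoter. Neither promoter is limited to a cell type, and the tissue held cells with and without virus, so that every value is an average over them. No group without a virus was among the samples used here.

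Total counts were 7440027, 9768835 and 7081172 in Ctrl + Saline mice and 9550666, 9169736, 7807576 and 8725059 in Ctrl + Morphine mice. They were 9086090, 9123232, 9256317, 9122741 and 10279638 in Kdm7a-shRNA + Saline mice and 6596991, 8504700, 12418112 and 7536788 in Kdm7a-shRNA + Morphine mice. Replicates are given in the order of their numbers throughout. Levels are CPM, the counts scaled to a common total with trimmed-mean factors, and fold changes are on the log2 scale. All 43 members were among the 18826 genes tested with edgeR, and the member with the fewest counts had between 5 and 24 counts in each mouse. The 43 members summed to between 962 and 1178 CPM in each mouse. A gene passed with an adjusted p below 0.05 together with a change of 1.5-fold or more, up or down. Where the mice of 2 groups are said to lie apart or to overlap, this describes these few mice only. How many of all tested genes were separated in the same way was not counted.

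Histone methyltransferases transfer methyl groups to lysines of histones. Methylation of H3K4 marks promoters and enhancers in use, and methylation of H3K9 and H3K27 marks silenced chromatin. Demethylases remove these groups. Acetyltransferases add acetyl groups that loosen the contact between histones and DNA, and histone deacetylases take them off. In neurons these enzymes act on the genes that follow synaptic activity, and inhibitors of histone deacetylases are widely used to study memory.

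Kdm7a, the target of the hairpin and not itself among the 43 members, was examined as a check of the labels. Its level was 9.78, 9.08 and 9.41 CPM in Ctrl + Saline mice, 7.79, 6.19, 8.89 and 8.02 in Ctrl + Morphine mice, 5.74, 4.95, 6.04, 6.07 and 4.92 in Kdm7a-shRNA + Saline mice, and 6.28, 4.44, 3.01 and 6.04 in Kdm7a-shRNA + Morphine mice. Every saline mouse with the Kdm7a hairpin lay below every saline mouse with the control virus, while under morphine replicate 1 of the knockdown group (6.28) lay above replicate 2 of the control group (6.19). Kdm7a fell under saline (log2 fold change -0.76, SE 0.20, adjusted p = 0.0153) and in the average over both treatments (-0.71, adjusted p = 0.00154), and under morphine it was -0.67 with an adjusted p of 0.0506, where DESeq2 passed it (-0.66, adjusted p = 0.041). The interaction was 0.10 (adjusted p = 0.945). The saline call was lost without Ctrl + Saline replicate 3 (-0.79, adjusted p = 0.0533), and with offsets that followed transcript length it was -0.50 (adjusted p = 0.0774).

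Under saline, 3 of the 43 members passed, beside 3151 of the 18826 tested genes (16.7%). Kmt2a and Kmt2c fell, beside 9.31% of all tested genes that passed as lower, and Hdac5 rose, beside 7.43% that passed as higher. Under morphine, Kdm5c alone passed, as lower, beside 7.69% of all tested genes in either direction, 4.83% lower and 2.86% higher. In the average of the knockdown over both treatments, Kmt2a and Kmt2c passed as lower, beside 17.6% of all tested genes, 9.93% lower and 7.68% higher. The table also holds loci that the authors assembled from these reads, and among the 14162 tested genes that were known before, 12% passed under saline, 4.64% under morphine and 11.3% in the average.

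Counted in either direction in this fit, the members passed no more often than the genes around them. In some settings the share of members was slightly larger: with known genes only, 2 of 43 passed under morphine beside 424 of 14153. Without the mice high in microglia markers, described below and chosen after seeing the data, 4 of 43 passed under saline beside 1156 of 18858. These shares rest on few members, their difference from the other genes was not tested, and nothing is read from it. The number of all genes that passed also hung on single mice, with 2083 of 19346 under saline without Ctrl + Saline replicate 2 and 1424 of 19242 without replicate 3, and under morphine 578 of 18661 without Ctrl + Morphine replicate 4 and 568 of 18747 without Kdm7a-shRNA + Morphine replicate 3. By direction this differed among the known genes, of which 422, 180 and 300 of 14162 passed as lower and 1275, 477 and 1298 as higher. The 2, 1 and 2 of 43 members that passed as lower are a larger share than that, and the 1, 0 and 0 that passed as higher a smaller share, and whether this differs from chance was not tested. At an adjusted p under 0.05 without the fold limit, 8 members were called under saline (4 lower and 4 higher) beside 20.3% of all tested genes, 3 under morphine beside 9.26%, and 6 in the average beside 27.6%. At an unadjusted p under 0.05 there were 12, 7 and 11 members, beside 34.7%, 25.5% and 38.8% of all tested genes.

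In direction, 30 of the 43 members had a log2 fold change below 0 under saline, 33 under morphine and 31 in the average, beside 48.7%, 50.4% and 48.8% of all tested genes. The median over the members was -0.10, -0.14 and -0.13 in that order, and over all tested genes 0.01, -0.00 and 0.01. Among these known genes, 5749, 6404 and 5853 of 14162 were below 0. This lean depended on how transcript length was treated: with length-dependent offsets 20, 27 and 22 of the 43 members were below 0. With offsets for length and GC content together these counts were 24, 21 and 27, and with offsets for GC content alone 30, 32 and 34. With library size as the only scaling the median of all tested genes shifted by -0.13, -0.11 and -0.12, and 33, 35 and 36 members were below 0. The knockdown comparisons under saline and under morphine use different mice. Of the 43 members 26 had the same sign in both, 23 below 0 and 3 above, beside 67.9% of all tested genes with the same sign. Of all 18826 tested genes, 6307 were below 0 in both and 6473 above, and of the 14162 known genes 3619 and 5628. Whether the members differ from these by more than chance was not tested.

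**Figure D1:**
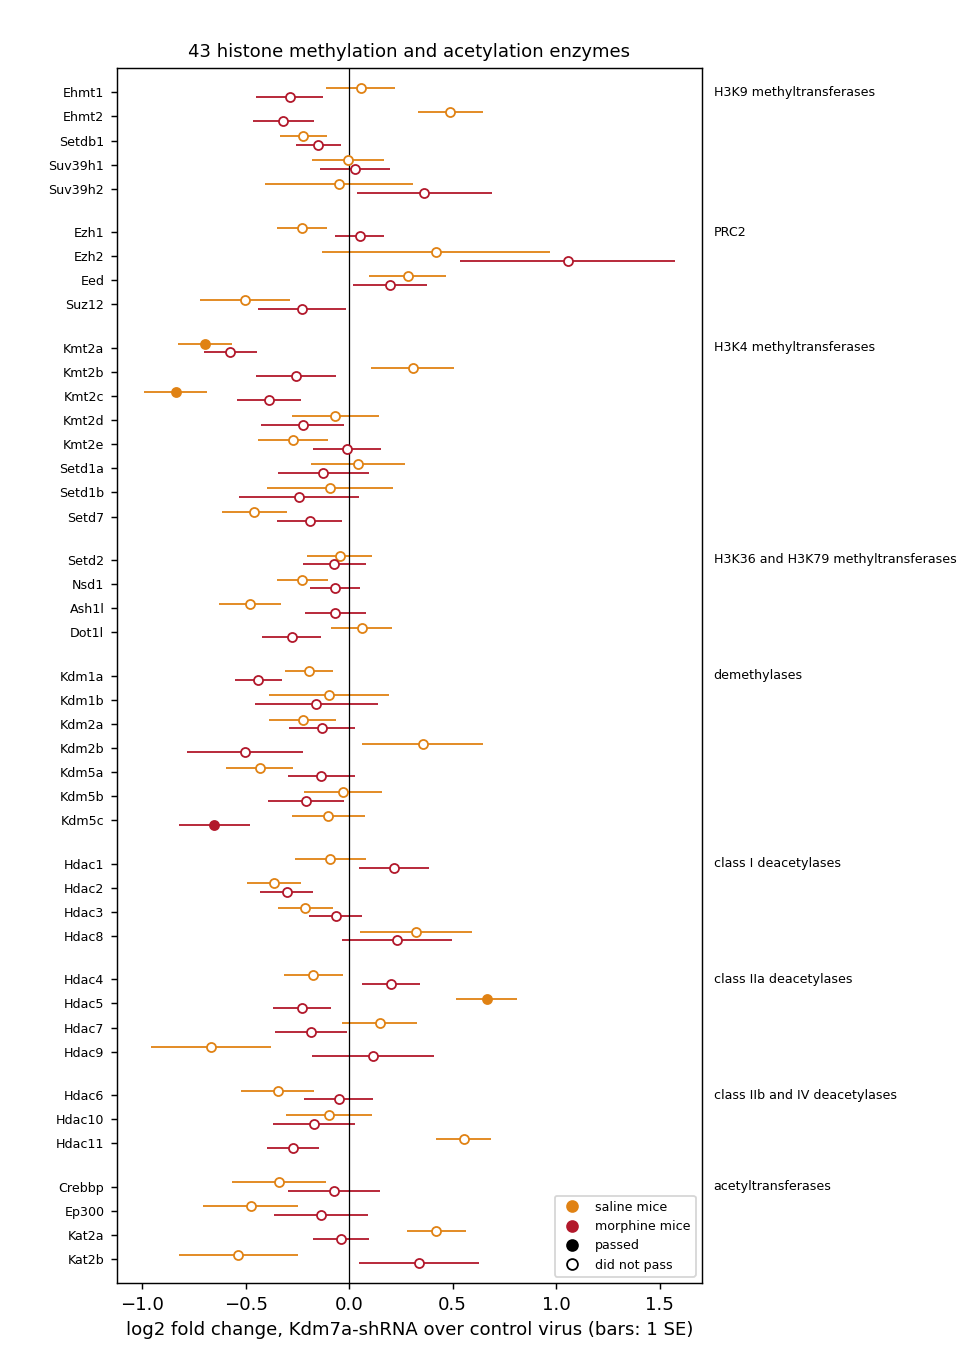
Log2 fold change of each of the 43 members for Kdm7a-shRNA over control virus, in saline mice (3 against 5) and in morphine mice (4 against 4), ordered by role. Points are estimates, bars are 1 SE, and filled points passed. Kmt2a (-0.70), Kmt2c (-0.84) and Hdac5 (0.66) passed under saline and Kdm5c (-0.65) under morphine.

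The promoters of the 4 members that passed in a knockdown comparison are shown because the results turn on these genes. The sequences are from RefSeq on GRCm38.p6 and run 5′ to 3′ on the strand of the gene, from 250 bases before to 50 bases after a transcription start. They lie at chr9:44881240-44881539 (minus strand) for Kmt2a, chr5:25498734-25499033 (minus strand) for Kmt2c, chrX:152232977-152233276 (plus strand) for Kdm5c and chr11:102230123-102230422 (minus strand) for Hdac5. Capitals mark the GC box (GGGCGG), the CCAAT box (CCAAT) and the cAMP response element (TGACGTCA) on either strand.
Kmt2a: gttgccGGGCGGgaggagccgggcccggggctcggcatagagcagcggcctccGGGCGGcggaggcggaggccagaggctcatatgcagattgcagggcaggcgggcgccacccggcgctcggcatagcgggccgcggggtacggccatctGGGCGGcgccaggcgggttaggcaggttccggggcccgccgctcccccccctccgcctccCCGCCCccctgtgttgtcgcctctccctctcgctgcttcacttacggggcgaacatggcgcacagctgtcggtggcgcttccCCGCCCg
Kmt2c: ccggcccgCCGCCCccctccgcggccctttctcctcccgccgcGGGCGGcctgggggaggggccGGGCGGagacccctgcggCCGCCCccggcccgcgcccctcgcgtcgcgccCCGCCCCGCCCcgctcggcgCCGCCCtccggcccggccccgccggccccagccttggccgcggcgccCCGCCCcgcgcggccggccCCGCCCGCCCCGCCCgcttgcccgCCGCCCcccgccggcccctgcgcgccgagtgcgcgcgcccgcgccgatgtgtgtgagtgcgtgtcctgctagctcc
Kdm5c: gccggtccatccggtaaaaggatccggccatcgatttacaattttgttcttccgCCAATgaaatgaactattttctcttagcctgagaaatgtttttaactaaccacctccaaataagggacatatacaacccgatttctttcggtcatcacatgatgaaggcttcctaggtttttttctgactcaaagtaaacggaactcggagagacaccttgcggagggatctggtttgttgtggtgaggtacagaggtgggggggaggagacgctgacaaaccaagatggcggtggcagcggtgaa
Hdac5: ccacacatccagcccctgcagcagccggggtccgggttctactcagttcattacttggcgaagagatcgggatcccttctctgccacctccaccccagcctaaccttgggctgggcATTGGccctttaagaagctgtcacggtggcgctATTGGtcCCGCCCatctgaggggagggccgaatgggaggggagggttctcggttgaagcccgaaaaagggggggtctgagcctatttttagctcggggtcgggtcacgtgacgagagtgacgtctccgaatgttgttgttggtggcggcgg
The Kmt2c window was the richest of the 4 in GC (88%, with 56 CpG and 12 GC boxes), followed by Kmt2a (75.7%, 36 CpG, 5 GC boxes) and Hdac5 (60.7%, 18 CpG, 1 GC box and 2 CCAAT boxes). Kdm5c had 47% GC, 13 CpG and 1 CCAAT box, with no GC box in this window. None of the 4 windows held the cAMP response element. Over all 32851 promoters of the same length, 35.7% held a GC box, 37.4% a CCAAT box and 1.79% the cAMP response element. RefSeq windows were matched for 33 of the 43 members (43 windows, since some genes have several), of which 26 held a GC box, 15 a CCAAT box and 1 the cAMP response element. Their median GC content was 64.3%, beside 52.7% over all promoters. These matches describe letters only and say nothing of binding.

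The H3K4 methyltransferases, which mark promoters and enhancers, held the 2 members that fell furthest under saline and in the average. Kmt2a encodes MLL1, a methyltransferase studied in prefrontal cortex for its part in working memory. Its level was 61.9, 73.7 and 67.2 CPM in Ctrl + Saline mice, 55.6, 55.3, 55.3 and 76.9 in Ctrl + Morphine mice, 40.3, 43.1, 37.8, 45.4 and 41.8 in Kdm7a-shRNA + Saline mice, and 39.7, 45.7, 34.7 and 43.5 in Kdm7a-shRNA + Morphine mice. All 9 knockdown mice lay below all 7 control mice. Group means were 67.6 ± 5.92 (SD, n = 3), 60.8 ± 10.8 (n = 4), 41.7 ± 2.87 (n = 5) and 40.9 ± 4.81 (n = 4) in the same order. Kmt2a fell under saline to 0.617 of the control level (-0.70, SE 0.13, adjusted p = 0.00205) and in the average (-0.63, SE 0.09, adjusted p = 0.000111). Under morphine it was -0.57 (adjusted p = 0.0126), which did not reach the fold limit, and the interaction was 0.12 (adjusted p = 0.874). It did pass under morphine with library size only (-0.68, where the median of all genes also shifted by -0.11), with at least 10 counts in every mouse (-0.59), with known genes only (-0.61) and in 5 of the fits without 1 mouse. Its longest annotated transcript has 16470 bases, and with length-dependent offsets the values were -0.31 under saline (adjusted p = 0.0897) and -0.35 in the average (adjusted p = 0.00696), so neither passed. Without Ctrl + Morphine replicate 4, the highest mouse, the average was -0.57 (adjusted p = 0.000236) and under the fold limit.

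Kmt2c encodes MLL3, which acts mainly at enhancers. Its level was 18.6, 25.4 and 18.9 CPM in Ctrl + Saline mice, 16.4, 14.1, 16.4 and 16.5 in Ctrl + Morphine mice, 12.6, 11.6, 12.8, 10.8 and 10.95 in Kdm7a-shRNA + Saline mice, and 11.95, 10.6, 10.4 and 15.7 in Kdm7a-shRNA + Morphine mice. Ctrl + Saline mice were the highest of the 4 groups and overlapped with none of the others, while under morphine the knockdown mouse at 15.7 lay inside the control range. Kmt2c fell under saline to 0.559 of the control level (-0.84, SE 0.15, adjusted p = 0.00183) and in the average (-0.61, SE 0.11, adjusted p = 0.000588). Under morphine it was -0.39 (adjusted p = 0.12) and the interaction was 0.45 (adjusted p = 0.477). With length-dependent offsets (transcript of 14967 bases) it was -0.46 under saline (adjusted p = 0.0299) and -0.34 in the average (adjusted p = 0.0161), under the fold limit in both. The average also fell under the fold limit without Ctrl + Saline replicate 2 (-0.53), Kdm7a-shRNA + Morphine replicate 2 (-0.58) or replicate 3 (-0.58).

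Among all 8 H3K4 methyltransferases, 6 were below 0 under saline, 8 under morphine and 7 in the average, with 4, 7 and 3 under length-dependent offsets. The median of the class was -0.18, -0.23 and -0.16. Setd7, which adds a single methyl group to H3K4, was -0.46 under saline (adjusted p = 0.0469) and -0.32 in the average (adjusted p = 0.0359), under the fold limit in both. Setd7 passed under saline without Ctrl + Saline replicate 1. The other 5 genes, Kmt2b, Kmt2d, Kmt2e, Setd1a and Setd1b, had average log2 fold changes between -0.17 and 0.03 and no adjusted p under 0.05. Setd1a shares exon sequence with Gm49388 on the same strand and Kmt2e with Srpk2 on the opposite strand, and reads of such pairs may have been divided between them. Whether reads were counted by strand is not given in the sources, so for this and the other overlaps named below the effect on the counts is unknown.

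**Figure D2:**
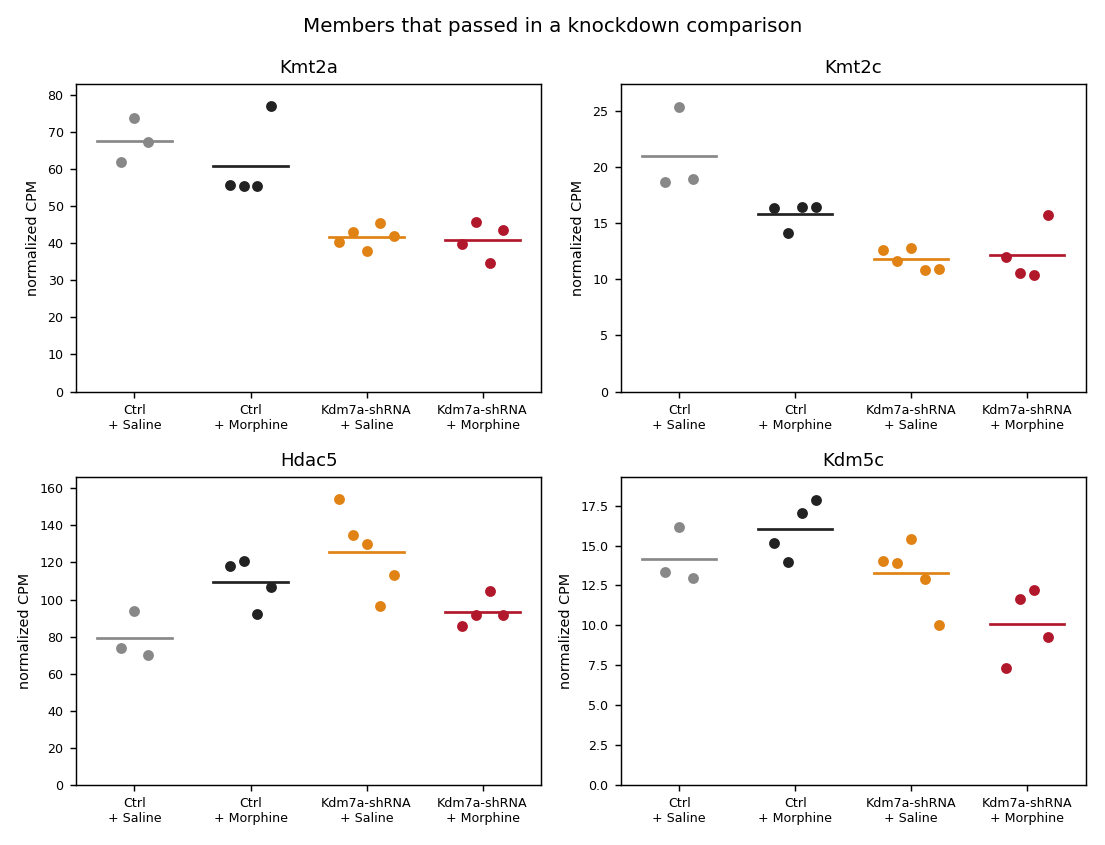
Normalized CPM of Kmt2a, Kmt2c, Hdac5 and Kdm5c in each mouse, with axes from 0. Points are mice and lines are group means. Kmt2a lay between 34.7 and 45.7 in all knockdown mice and between 55.3 and 76.9 in all control mice, while Hdac5 and Kdm5c were separated in saline mice and in morphine mice, respectively.

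H3K9 is a lysine from which KDM7A removes methyl groups, as it does from H3K27. Of the 5 methyltransferases of H3K9 none passed in a comparison with edgeR, while DESeq2 passed Ehmt2 in the interaction. Ehmt2 encodes G9a, the main enzyme of H3K9 dimethylation in neurons, and was the most abundant of the class. Its level was 69.5, 76.0 and 57.0 CPM in Ctrl + Saline mice, 89.7, 108, 87.9 and 100 in Ctrl + Morphine mice, 121, 105, 90.9, 78.6 and 78.7 in Kdm7a-shRNA + Saline mice, and 62.5, 80.1, 80.9 and 85.3 in Kdm7a-shRNA + Morphine mice. The Ctrl + Saline mice were lower than both the Ctrl + Morphine and the Kdm7a-shRNA + Saline mice without overlap, and the Kdm7a-shRNA + Morphine mice lay below the Ctrl + Morphine mice. Its log2 fold change was 0.49 under saline (adjusted p = 0.0336, fold under 1.5), -0.32 under morphine (adjusted p = 0.186) and 0.09 in the average (adjusted p = 0.587). Without Ctrl + Saline replicate 2 it passed under saline (0.59, adjusted p = 0.0423).

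Setdb1, a methyltransferase that silences repeats, read 33.0, 39.0 and 30.7 CPM in Ctrl + Saline mice, 33.5, 33.0, 36.4 and 32.4 in Ctrl + Morphine mice, 28.7, 25.8, 31.3, 31.6 and 29.7 in Kdm7a-shRNA + Saline mice, and 29.4, 30.1, 32.3 and 30.2 in Kdm7a-shRNA + Morphine mice. The saline groups overlapped, and the morphine groups were apart by a small gap (lowest control 32.4, highest knockdown 32.3). The average was -0.18 (adjusted p = 0.0911), and its exons overlap those of Cers2 on the opposite strand. Ehmt1, Suv39h1 and Suv39h2 had averages between -0.11 and 0.16, and exons of Suv39h2 overlap those of Dclre1c on the opposite strand. In the class, 3 of 5 were below 0 under saline, 3 under morphine and 2 in the average.

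The PRC2 members, which form the complex that methylates H3K27, had no member that passed. Ezh1, the catalytic subunit of mature neurons, read 58.6, 73.0 and 59.5 CPM in Ctrl + Saline mice, 51.8, 57.0, 53.3 and 53.7 in Ctrl + Morphine mice, 48.3, 57.5, 52.8, 58.6 and 54.7 in Kdm7a-shRNA + Saline mice, and 55.8, 67.5, 50.7 and 49.6 in Kdm7a-shRNA + Morphine mice. Only Ctrl + Saline and Ctrl + Morphine mice were apart, with the saline mice higher (-0.24 for morphine, adjusted p = 0.481), and the knockdown average was -0.09 (adjusted p = 0.464). Suz12, a subunit that holds the complex together, read 9.52, 8.98 and 9.14 CPM in Ctrl + Saline mice, 12.1, 5.76, 8.52 and 5.78 in Ctrl + Morphine mice, 7.12, 6.34, 5.21, 6.97 and 6.83 in Kdm7a-shRNA + Saline mice, and 6.74, 7.19, 7.65 and 5.77 in Kdm7a-shRNA + Morphine mice. The saline groups did not overlap, but Ctrl + Morphine mice spread from 5.76 to 12.1 and overlapped with all other groups. Suz12 was -0.50 under saline (adjusted p = 0.109) and -0.37 in the average (adjusted p = 0.0833). Ezh2, the subunit of dividing cells, was low and spread from 0.749 to 12.6 CPM, with an average of 0.74 (SE 0.38, adjusted p = 0.161), and Eed was 0.24 (adjusted p = 0.185).

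None of the 4 H3K36 and H3K79 methyltransferases passed. Ash1l, an H3K36 methyltransferase, read 29.7, 39.8 and 31.3 CPM in Ctrl + Saline mice, 26.6, 30.2, 23.7 and 24.5 in Ctrl + Morphine mice, 20.3, 28.1, 21.0, 29.0 and 22.2 in Kdm7a-shRNA + Saline mice, and 24.5, 24.1, 22.9 and 28.8 in Kdm7a-shRNA + Morphine mice. Saline knockdown mice lay below all Ctrl + Saline mice, and the morphine groups overlapped. Ash1l was -0.48 under saline (adjusted p = 0.0318, fold under 1.5), -0.07 under morphine and -0.27 in the average (adjusted p = 0.0632), with an interaction of 0.41 (adjusted p = 0.508). It passed under saline without Ctrl + Saline replicate 1 (-0.60, adjusted p = 0.0225), and its exons overlap those of Dap3 on the opposite strand. Dot1l, the H3K79 methyltransferase, read 47.2, 44.0 and 54.3 CPM in Ctrl + Saline mice, 57.1, 62.3, 59.2 and 60.0 in Ctrl + Morphine mice, 39.3, 60.7, 53.4, 41.2 and 58.1 in Kdm7a-shRNA + Saline mice, and 44.7, 44.0, 56.9 and 51.0 in Kdm7a-shRNA + Morphine mice. Ctrl + Morphine mice were above all Ctrl + Saline and all Kdm7a-shRNA + Morphine mice, and the saline groups overlapped. Its average was -0.11 (adjusted p = 0.46). Setd2 and Nsd1 had averages of -0.06 and -0.15, so that all 4 of the class were below 0 in the average, against 1 of 4 under length-dependent offsets.

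Of the 7 demethylases, 6 were below 0 under saline, 7 under morphine and 7 in the average, with 2, 6 and 5 under length-dependent offsets. Kdm5c, which removes H3K4 methylation and is mutated in an X-linked form of intellectual disability, read 13.3, 16.2 and 13.0 CPM in Ctrl + Saline mice, 15.2, 14.0, 17.0 and 17.9 in Ctrl + Morphine mice, 14.0, 13.9, 15.4, 12.9 and 10.1 in Kdm7a-shRNA + Saline mice, and 7.35, 11.6, 12.2 and 9.26 in Kdm7a-shRNA + Morphine mice. The morphine groups did not overlap, and the saline groups did. Kdm5c fell under morphine to 0.637 of the control level (-0.65, SE 0.17, adjusted p = 0.0256). It was -0.10 under saline (adjusted p = 0.728) and -0.38 in the average (adjusted p = 0.0295, fold under 1.5), and the interaction was -0.55 (adjusted p = 0.427). The call was lost without Ctrl + Morphine replicate 3 (adjusted p = 0.0671) or replicate 4 (0.0837) and without Kdm7a-shRNA + Morphine replicate 1 (0.077), the lowest mouse. It was also lost with length-dependent offsets (-0.58, adjusted p = 0.0526) and in a fit of the morphine groups alone (adjusted p = 0.0566).

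Kdm1a encodes LSD1, which removes methyl groups from H3K4 and was the most abundant demethylase. Its level was 46.4, 55.8 and 50.7 CPM in Ctrl + Saline mice, 59.8, 51.3, 56.0 and 62.1 in Ctrl + Morphine mice, 50.1, 46.4, 42.9, 39.8 and 43.9 in Kdm7a-shRNA + Saline mice, and 39.5, 39.4, 41.2 and 49.0 in Kdm7a-shRNA + Morphine mice. Morphine mice with the Kdm7a hairpin were all below those with the control virus, while the saline groups overlapped. Kdm1a was -0.44 under morphine (SE 0.11, adjusted p = 0.0236) and -0.32 in the average (adjusted p = 0.0079), under the fold limit in both, and its interaction was -0.25 (adjusted p = 0.64). The other 5 demethylases had averages between -0.28 (Kdm5a) and -0.07 (Kdm2b) and none passed. Kdm2b in Kdm7a-shRNA + Morphine mice spread from 3.83 to 19.1 CPM, and its exons overlap those of Rnf34. Exons of Kdm1b overlap Dek and those of Kdm5a overlap Ccdc77, both on the opposite strand.

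Among the class I deacetylases, nuclear enzymes that work in repressor complexes, none of the 4 passed. Hdac2, a negative regulator of memory in mice, read 25.5, 28.0 and 28.6 CPM in Ctrl + Saline mice, 26.2, 27.4, 25.7 and 26.2 in Ctrl + Morphine mice, 21.9, 17.2, 21.4, 26.8 and 19.2 in Kdm7a-shRNA + Saline mice, and 22.5, 21.0, 22.4 and 19.6 in Kdm7a-shRNA + Morphine mice. All knockdown mice except Kdm7a-shRNA + Saline replicate 4 were below all control mice. The average was -0.33 (SE 0.09, adjusted p = 0.0121, fold under 1.5), with -0.36 under saline (adjusted p = 0.0595) and -0.30 under morphine (adjusted p = 0.147). Hdac1 read 35.0, 40.5 and 34.7 CPM in Ctrl + Saline mice, 25.5, 26.2, 30.4 and 32.8 in Ctrl + Morphine mice, 26.8, 37.1, 39.2, 28.1 and 41.5 in Kdm7a-shRNA + Saline mice, and 37.8, 32.6, 38.8 and 24.2 in Kdm7a-shRNA + Morphine mice. Here Ctrl + Morphine mice were below Ctrl + Saline mice (-0.36, adjusted p = 0.461) and both knockdown groups overlapped with their controls. The average of Hdac1 was 0.06 (adjusted p = 0.737). Hdac3 and Hdac8 had averages of -0.14 and 0.28.

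The class IIa deacetylases move between nucleus and cytoplasm with neuronal activity, and Hdac5, known for its part in responses to cocaine, was the most abundant of them. Hdac5 read 74.0, 93.6 and 70.1 CPM in Ctrl + Saline mice, 118, 121, 92.1 and 107 in Ctrl + Morphine mice, 154, 135, 130, 96.6 and 113 in Kdm7a-shRNA + Saline mice, and 85.7, 91.6, 105 and 91.5 in Kdm7a-shRNA + Morphine mice. Saline knockdown mice were all above Ctrl + Saline mice, and the morphine groups overlapped. Hdac5 rose under saline 1.59-fold (0.66, SE 0.15, adjusted p = 0.00574), and it was -0.23 under morphine (adjusted p = 0.332) and 0.22 in the average (adjusted p = 0.12). The interaction was -0.89 (SE 0.20, adjusted p = 0.0815). With offsets that followed GC content the saline value was 0.37 (adjusted p = 0.0537). With library size only it was 0.53 (adjusted p = 0.0145, fold under 1.5), where the median of all genes also shifted by -0.13. The call was also lost without Ctrl + Saline replicate 1 (0.58, adjusted p = 0.0266), Ctrl + Saline replicate 3 (0.56, adjusted p = 0.0502) or Kdm7a-shRNA + Saline replicate 1 (0.58, adjusted p = 0.013). Hdac4, Hdac7 and Hdac9 had averages of 0.01, -0.02 and -0.28, none with an adjusted p under 0.05 in any comparison. Exons of Hdac7 overlap those of Slc48a1 on the opposite strand.

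Hdac6 acts mainly on tubulin in the cytoplasm. It read 11.1, 12.4 and 13.9 CPM in Ctrl + Saline mice, 16.3, 15.3, 13.3 and 12.6 in Ctrl + Morphine mice, 9.77, 8.76, 7.82, 12.8 and 9.85 in Kdm7a-shRNA + Saline mice, and 13.2, 16.9, 11.2 and 14.4 in Kdm7a-shRNA + Morphine mice. Saline knockdown mice were mostly the lowest but overlapped with all other groups through replicate 4, and the average was -0.20 (adjusted p = 0.243). Hdac11, the class IV enzyme, had a mean of 73.4 CPM over all mice, below only Hdac5 and Ehmt2 among all 43 members. It read 61.7, 53.2 and 49.8 CPM in Ctrl + Saline mice, 86.6, 96.1, 69.3 and 79.6 in Ctrl + Morphine mice, 82.7, 77.4, 68.6, 92.8 and 81.1 in Kdm7a-shRNA + Saline mice, and 72.3, 74.2, 58.3 and 70.2 in Kdm7a-shRNA + Morphine mice. As with Ehmt2, Ctrl + Saline mice were below all Ctrl + Morphine and all Kdm7a-shRNA + Saline mice. Hdac11 was 0.55 under saline (SE 0.13, 1.47-fold, adjusted p = 0.00859), -0.27 under morphine (adjusted p = 0.186) and 0.14 in the average (adjusted p = 0.271). It passed under saline without Ctrl + Saline replicate 1 (0.61, adjusted p = 0.0129) or Kdm7a-shRNA + Saline replicate 3 (0.61, adjusted p = 0.00805). Hdac10 was -0.13 in the average.

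Of the 4 acetyltransferases none passed. Crebbp, the coactivator CBP, read 18.1, 31.3 and 20.3 CPM in Ctrl + Saline mice, 22.4, 27.1, 20.5 and 17.4 in Ctrl + Morphine mice, 11.6, 14.1, 21.0, 23.7 and 21.7 in Kdm7a-shRNA + Saline mice, and 22.5, 22.2, 17.0 and 21.6 in Kdm7a-shRNA + Morphine mice. All groups overlapped, and the average was -0.21 (SE 0.16, adjusted p = 0.36). Kat2a, the GCN5 subunit of the SAGA and ATAC complexes, read 19.7, 12.5 and 15.4 CPM in Ctrl + Saline mice, 21.4, 21.3, 17.3 and 23.0 in Ctrl + Morphine mice, 20.2, 21.0, 20.6, 22.9 and 21.1 in Kdm7a-shRNA + Saline mice, and 20.2, 20.6, 19.6 and 20.5 in Kdm7a-shRNA + Morphine mice. Ctrl + Saline mice lay below all saline knockdown mice, but replicate 1 (19.7) lay inside the range of the Ctrl + Morphine mice and above the lowest Kdm7a-shRNA + Morphine mouse. Kat2a was 0.42 under saline (adjusted p = 0.0453, fold under 1.5), -0.04 under morphine and 0.19 in the average (adjusted p = 0.158), with an interaction of -0.46 (adjusted p = 0.399). Ep300 and Kat2b had averages of -0.31 and -0.10, and Kat2b had the lowest mean CPM of all members over all mice (1.90).

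**Figure D3:**
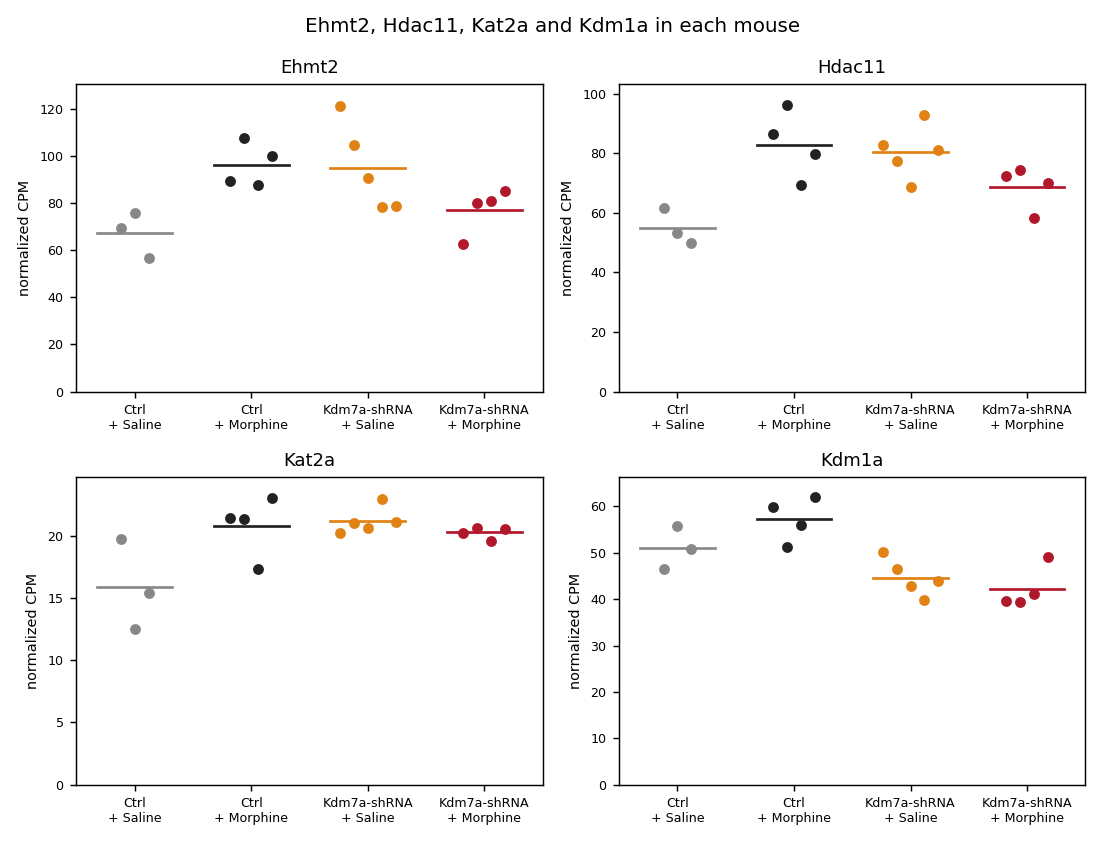
Normalized CPM of Ehmt2, Hdac11, Kat2a and Kdm1a in each mouse, with axes from 0. Points are mice and lines are group means. For Ehmt2 and Hdac11 the Ctrl + Saline mice (57.0 to 76.0 and 49.8 to 61.7) lie below the Ctrl + Morphine mice (87.9 to 108 and 69.3 to 96.1), while Kdm1a is separated between the morphine groups.

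By mean CPM over all mice, Hdac5 (104.8), Ehmt2 (85.7) and Hdac11 (73.4) were the most abundant members, and Kmt2a stood at 51.1. These means pool groups that differ, and in Ctrl + Saline mice alone the order was Hdac5 (79.2), Kmt2a (67.6), Ehmt2 (67.5), Ezh1 (63.7) and Hdac11 (54.9). Across the members CPM and length were unrelated (r = 0.01 over 43 genes, which are not independent replicates), so that a division by length changes the order. The library kit enriches full-length cDNA, and counts of such reads need not scale with length. The values per kilobase are therefore a description and not an order of abundance. Per kilobase of the longest annotated transcript and over all mice, Hdac11 (27.7), Ehmt2 (21.3), Hdac5 (19.4), Hdac1 (16.3), Kdm1a (15.98) and Ezh1 (13.4) were the highest. Kat2b (0.409), Setd1b (0.432), Suv39h2 (0.481) and Kdm1b (0.579) were the lowest. The order per kilobase also pools groups that differ. The very long Kmt2a and Kmt2c stood at 3.10 and 0.976.

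Morphine was compared with saline under each virus, to ask which members differ after withdrawal. Under the control virus no member passed with edgeR, beside 0 of 18826 tested genes (0%), and 7 members had an unadjusted p under 0.05, beside 11.7% of all tested genes. Without Ctrl + Saline replicate 1, 230 of 19425 genes passed and still no member, and without Kdm7a-shRNA + Morphine replicate 2 it was 10 of 18783. DESeq2 passed 0 of the 40 members to which it gave an adjusted p, beside 1.53% of its 12667 genes. The smallest adjusted p among members was that of Hdac11 (0.59, SE 0.14, adjusted p = 0.138), higher in every Ctrl + Morphine mouse than in every Ctrl + Saline mouse. Ehmt2 followed in the same direction (0.51, adjusted p = 0.22), then Hdac5 (0.46, adjusted p = 0.238) and Kat2a (0.39, adjusted p = 0.292). In the other direction Hdac9 had the largest change of all members (-0.78, SE 0.31, adjusted p = 0.319, with overlap), and Kmt2c was -0.41 (adjusted p = 0.32). In all 23 members were below 0, with a median of -0.02, beside 9746 of 18826 tested genes and 6379 of 14162 known genes below 0. Under the Kdm7a hairpin no member passed with edgeR, beside 1 of all tested genes (0.00531%), and 4 members had an unadjusted p under 0.05, beside 7.02%. DESeq2 passed 0 of 35 members, beside 0.236% of its 10605 genes. Hdac5 (-0.43, adjusted p = 0.577) and Hdac6 (0.50, adjusted p = 0.589) had the smallest adjusted p of the members. Below 0 were 21 members, beside 9571 of 18826 tested genes and 7075 of 14162 known genes.

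The interaction asks whether the knockdown difference is another under morphine than under saline. With edgeR no member passed, beside 16 of all tested genes (0.0850%), and 7 members had an unadjusted p under 0.05, beside 10.7%. DESeq2 passed 3 of the 35 members to which it gave an adjusted p, Ehmt2, Hdac5 and Hdac11, beside 2.26% of its 10605 genes. In edgeR these were Hdac5 at -0.89 (adjusted p = 0.0815), Hdac11 at -0.82 (adjusted p = 0.0772) and Ehmt2 at -0.81 (adjusted p = 0.135), and in DESeq2 -0.88 (adjusted p = 0.00521), -0.81 (adjusted p = 0.0041) and -0.79 (adjusted p = 0.0274). Without Ctrl + Saline replicate 1 Hdac11 passed in edgeR (-0.87, adjusted p = 0.0383), beside 266 of 19425 genes. The count of all genes was 113 of 18783 without Kdm7a-shRNA + Morphine replicate 2 and 0 without Ctrl + Saline replicate 2 or 3. With GC-dependent offsets the edgeR values were -0.50 for Hdac5 (adjusted p = 0.332), -0.58 for Hdac11 (adjusted p = 0.269) and -0.37 for Ehmt2 (adjusted p = 0.476). The knockdown under saline, morphine under the control virus and the interaction share the 3 Ctrl + Saline mice, so their values for a gene that was low in those mice are not separate observations.

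The share of counts from mitochondrial genes, which varies with RNA quality among other things, crossed over in the opposite direction to Hdac5, Hdac11 and Ehmt2. It was 0.797%, 1.22% and 1.06% in Ctrl + Saline mice, 0.677%, 0.996%, 0.907% and 0.636% in Ctrl + Morphine mice, 0.538%, 0.762%, 0.841%, 0.841% and 0.593% in Kdm7a-shRNA + Saline mice, and 1.24%, 1.12%, 0.975% and 1.48% in Kdm7a-shRNA + Morphine mice. The Kdm7a-shRNA + Morphine mice were above all Kdm7a-shRNA + Saline mice, and the groups otherwise compared here overlapped. Its part in the values of these genes was not tested.

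Because the members include some of the longest transcripts of the table, length and GC content were set beside their fold changes. The longest annotated transcripts of the members had a median of 5652 bases (2038 to 19823), beside 3465.5 over the 14160 tested genes with an annotated transcript, and 27 of 43 were in the longest quartile of those genes. Their median GC content was 49.97%, beside 49.61%. Across the 43 members, log2 fold change and log10 length had a Pearson r of -0.50 under saline, -0.36 under morphine and -0.58 in the average, beside -0.20, -0.13 and -0.19 across the 14160 genes. For GC content r was 0.50, -0.37 and 0.14 across the members and 0.21, -0.05 and 0.10 across all. For morphine under the control virus r with GC content was 0.69 across the members and 0.27 across all, and for the interaction -0.66 and -0.29. Genes share mice, libraries and base composition and are not independent replicates, so these values describe the data only. In the average, genes of the shortest quartile had a median log2 fold change of 0.16 and those of the longest -0.03, beside -0.15 for the 27 members in the longest quartile.

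**Figure D4:**
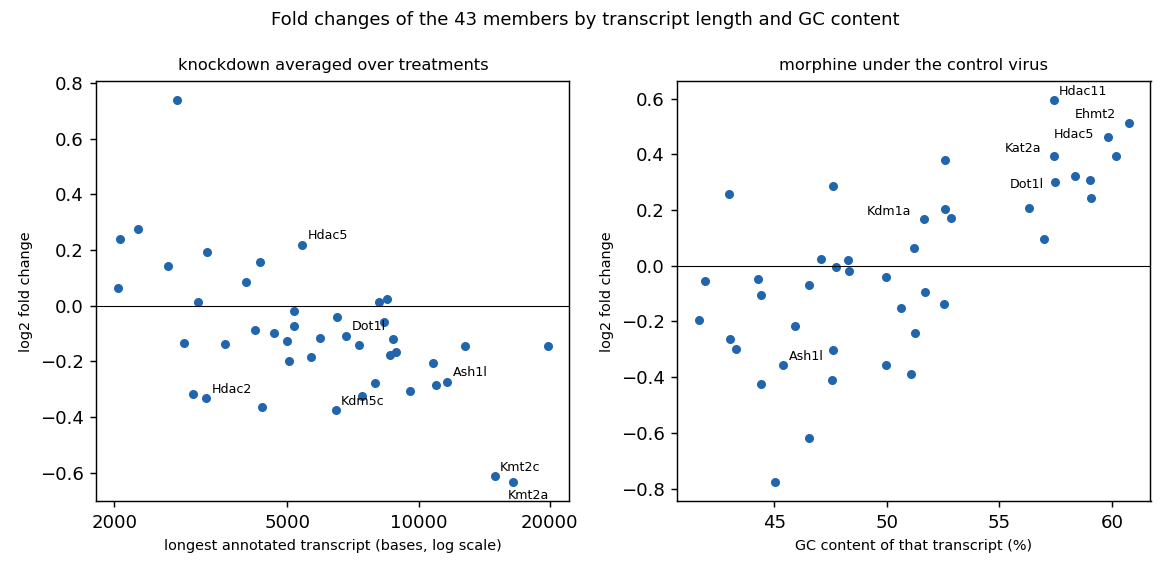
Log2 fold change of the 43 members against the length of the longest annotated transcript (log axis, average of the knockdown) and against its GC content (morphine under the control virus). Each point is a gene. Kmt2a and Kmt2c are among the longest and have the lowest values (-0.63 and -0.61), while Kmt2d, the longest (19823 bases), is at -0.15. Hdac11, Ehmt2 and Hdac5 are GC-rich with the highest values (0.59, 0.51 and 0.46).

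Genes of the GC-richest quartile deviated from their mean over all mice by a median of -0.05, -0.16 and -0.29 (log2) in Ctrl + Saline mice, and by -0.04 to 0.19 in the other 13 mice. The 3 Ctrl + Saline mice thus stood at the low end for GC-rich genes as a whole, with replicate 1 at the edge of the other mice. Over the 23 members above the median GC content of all genes the mean deviation was -0.09, 0.12 and -0.11 in Ctrl + Saline mice, below the 20 members under it (0.11, 0.27 and 0.13). In Ctrl + Morphine mice it was above them (0.14, 0.18, 0.06 and 0.13, beside 0.07, 0.04, -0.03 and -0.19). The 11 members of the GC-richest quartile had a median log2 fold change of 0.15 under saline and 0.32 for morphine under the control virus, beside 0.28 and 0.20 over all genes of that quartile. For the interaction it was -0.34 beside -0.25. Ehmt2 and Hdac11 were lower in Ctrl + Saline mice than in all Ctrl + Morphine and Kdm7a-shRNA + Saline mice, while Hdac5 in Ctrl + Saline replicate 2 (93.6) was above Ctrl + Morphine replicate 3 (92.1). The part of GC content and of length in the values of single members was not tested beyond the offsets given above. After such offsets for length and GC together, no member passed in any of the 6 comparisons, with Kmt2a at -0.46 (adjusted p = 0.0174), Kmt2c at -0.54 (adjusted p = 0.0126) and Hdac5 at 0.54 (adjusted p = 0.00605) under saline, all under the fold limit.

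Markers of cell types were set beside these results, since in bulk samples fewer cells of a type and less RNA per cell cannot be told apart. Microglia markers (6 genes, C1qa the most abundant) summed to 671, 561 and 634 CPM in Ctrl + Saline mice, 601, 311, 538 and 538 in Ctrl + Morphine mice, 1123, 1701, 2306, 803 and 1735 in Kdm7a-shRNA + Saline mice, and 999, 844, 2183 and 556 in Kdm7a-shRNA + Morphine mice. All saline knockdown mice lay above the saline controls, and 3 of 4 morphine knockdown mice lay above all controls. Of the 6 markers, 5 passed as higher under saline, 3 under morphine and 5 in the average. Inhibitory neuron markers (6 genes, Sst the most abundant) summed to 538, 488 and 549 CPM in Ctrl + Saline mice, 543, 538, 517 and 540 in Ctrl + Morphine mice, 375, 373, 329, 439 and 348 in Kdm7a-shRNA + Saline mice, and 478, 375, 361 and 481 in Kdm7a-shRNA + Morphine mice. Every knockdown mouse was below every control mouse in this sum, although single genes went both ways, with 3 lower and 2 higher under saline, 1 and 1 under morphine and 3 and 2 in the average.

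Astrocyte markers (6 genes, Gfap the most abundant) summed to 398, 357 and 504 CPM in Ctrl + Saline mice, 513, 279, 444 and 402 in Ctrl + Morphine mice, 489, 821, 1038, 504 and 968 in Kdm7a-shRNA + Saline mice, and 542, 480, 1004 and 398 in Kdm7a-shRNA + Morphine mice. The groups overlapped, with the highest sums in the mice that were also high for microglia markers, and 2 markers passed as higher under saline, 0 under morphine and 3 in the average. Endothelial markers (5 genes, Ly6c1 the most abundant) summed to 161, 143 and 123 CPM in Ctrl + Saline mice, 165, 134, 163 and 144 in Ctrl + Morphine mice, 201, 237, 268, 166 and 214 in Kdm7a-shRNA + Saline mice, and 178, 154, 282 and 149 in Kdm7a-shRNA + Morphine mice. The saline groups did not overlap and the morphine groups did, and 3, 1 and 2 markers passed as higher. Excitatory neuron markers (6 genes, Nrgn the most abundant) summed to between 1528 and 3934 CPM, with 1, 0 and 1 passing as higher and a median log2 fold change of -0.29, -0.34 and -0.36, and oligodendrocyte markers (6 genes, Mbp the most abundant) to between 7051 and 19802 CPM, with none passing. Of the remaining lists, 1 of 4 oligodendrocyte precursor markers, 1 of 6 pericyte and fibroblast markers and 1 of 3 ependymal markers passed as higher under saline, 0 under morphine, and 1, 1 and 2 in the average. Of 6 leukocyte markers 0, 0 and 1 passed as higher, and of 6 striatal neuron markers none. The striatal sum was 90.8, 75.9 and 68.6 CPM in Ctrl + Saline mice and 139, 123, 117 and 146 in Ctrl + Morphine mice, without overlap, in the direction of Hdac11, Ehmt2 and Hdac5 in the same mice. It was 74.3, 155, 60.7, 88.7 and 139 in Kdm7a-shRNA + Saline mice and 105, 108, 87.5 and 73.9 in Kdm7a-shRNA + Morphine mice, and how much tissue of a neighbouring region the samples held was not tested. No listed marker was at 0 in every mouse, and the neuronal markers expected of cortex were present.

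**Figure D5:**
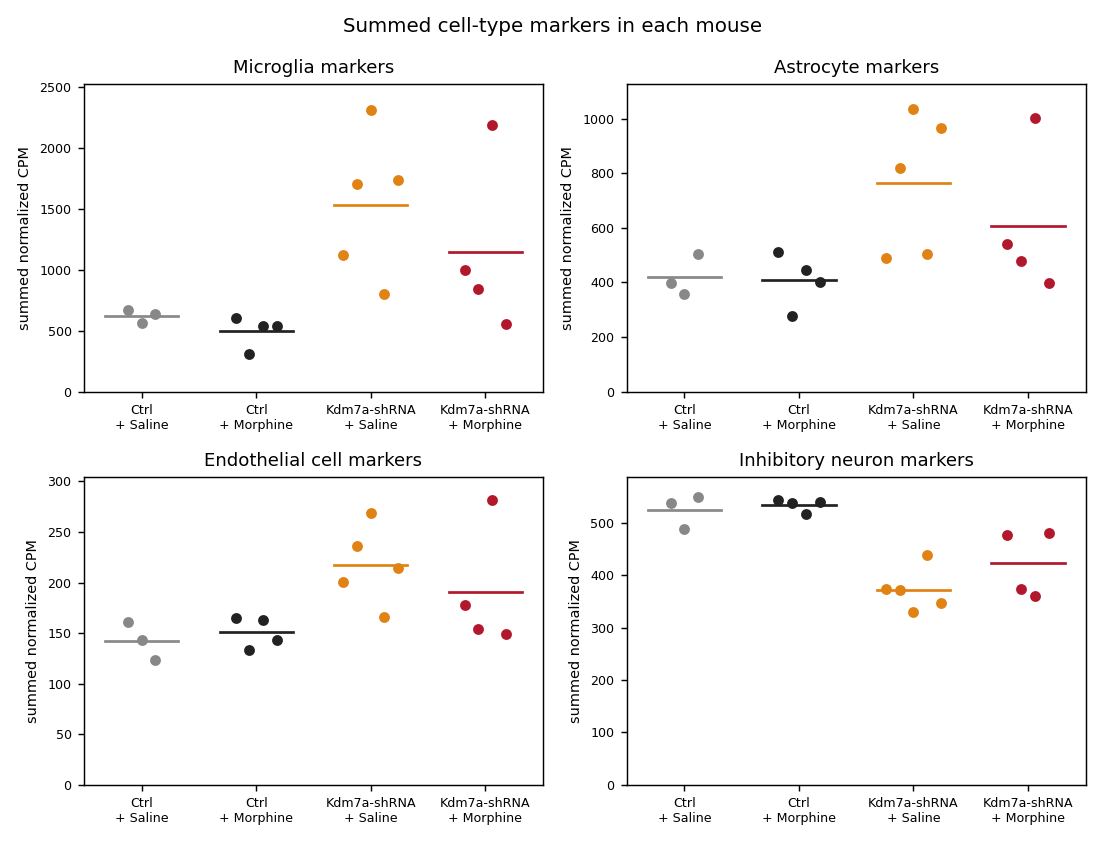
Summed normalized CPM of the marker lists of microglia, astrocytes, endothelial cells and inhibitory neurons in each mouse, with axes from 0. Points are mice and lines are group means. Microglia sums were 311 to 671 in control mice and 556 to 2306 in knockdown mice, and inhibitory neuron sums 488 to 549 and 329 to 481.

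The part of cell composition in the values of the members was not tested by a fit with markers. As an alternative chosen after seeing the data, the 4 mice with a microglia sum over 1500 CPM were left out, which were 3 Kdm7a-shRNA + Saline mice, 1 Kdm7a-shRNA + Morphine mouse and no control. Under saline Kmt2a (-0.63, adjusted p = 0.0454), Kmt2c (-0.82, adjusted p = 0.0351) and Hdac5 (0.68, adjusted p = 0.0456) passed without them, and Hdac11 as well (0.70, adjusted p = 0.023). That made 4 of 43 members beside 1156 of 18858 genes. Under morphine Kdm5c passed, as 1 of 43 beside 578 genes, and in the average 0 members passed beside 1851 genes. In the average neither Kmt2a (-0.56, adjusted p = 0.00548) nor Kmt2c (-0.57, adjusted p = 0.0138) reached the fold limit. Outside the members, the saline values were -0.65 for Kdm7a (adjusted p = 0.0976), -0.56 for Prdm2 (adjusted p = 0.141), 0.86 for Kmt5c (adjusted p = 0.211) and 0.59 for Mta2 (adjusted p = 0.19), none of which passed. Because the limit was set with the sums in view and removed knockdown mice only, it describes these calls and is no test of a cause.

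Further writers and erasers of histone marks outside the 43 members, a list of 48 genes that includes Kdm7a, were all tested. Under saline 4 passed (3 lower and 1 higher), under morphine 1 as lower and in the average 2 as lower, beside 16.7%, 7.69% and 17.6% of all tested genes, and the counts under saline and in the average include Kdm7a. Kat8, the acetyltransferase of H4K16, read 26.8, 22.5 and 32.7 CPM in Ctrl + Saline mice, 24.7, 15.9, 24.7 and 26.9 in Ctrl + Morphine mice, 10.9, 10.8, 13.3, 12.7 and 13.3 in Kdm7a-shRNA + Saline mice, and 14.1, 14.9, 12.7 and 11.7 in Kdm7a-shRNA + Morphine mice. All knockdown mice were below all control mice. Kat8 fell under saline (-1.16, SE 0.17, adjusted p = 0.000381), under morphine (-0.79, SE 0.17, adjusted p = 0.00954) and in the average (-0.97, SE 0.12, adjusted p = 2.59e-05), with an interaction of 0.37 (adjusted p = 0.622). Prdm2, an H3K9 methyltransferase, fell under saline (-0.73, SE 0.18, adjusted p = 0.0112), from 15.3, 21.8 and 24.6 CPM in Ctrl + Saline mice to between 9.79 and 14.6, without overlap. That call was lost without Ctrl + Saline replicate 3 (-0.60, adjusted p = 0.0752), and the interaction of Prdm2 was 0.38 (adjusted p = 0.644). Prdm2 read 14.7, 15.9, 15.1 and 15.8 CPM in Ctrl + Morphine mice and 10.1, 12.8, 9.62 and 16.1 in Kdm7a-shRNA + Morphine mice. Kmt5c, an H4K20 methyltransferase, rose under saline (1.25, SE 0.33, adjusted p = 0.0146), from 3.57, 1.85 and 2.38 CPM in Ctrl + Saline mice to between 3.71 and 8.04. It was lost without Ctrl + Saline replicate 2 (1.04, adjusted p = 0.0817) or replicate 3 (1.18, adjusted p = 0.0716), and the interaction was -1.51 (adjusted p = 0.185). Kmt5c read 6.99, 4.16, 4.38 and 8.56 CPM in Ctrl + Morphine mice, all above the Ctrl + Saline mice. In Kdm7a-shRNA + Morphine mice it read 4.90, 6.23, 5.76 and 3.09.

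Partner subunits of these enzymes made up a list of 59 genes, of which 58 were in the table and 57 were tested. Under saline 2 passed, both higher, under morphine 0, and in the average 1, beside the same shares of all tested genes. Beside this 0 of edgeR, 10 of 57 partners had an unadjusted p under 0.05 under morphine, beside 25.5% of all tested genes, and DESeq2 passed 0 of 58. DESeq2 passed 3 of 58 partners under saline, Gatad2a besides these 2, beside 3434 of its 23488 genes. Under morphine it passed 3 of the 48 other writers and erasers, Smyd2, Kdm7a and Kat8, beside 1657 of its 21426 genes. Taf6l, a subunit of SAGA, the complex of Kat2a, read 25.6, 22.7 and 33.5 CPM in Ctrl + Saline mice, 35.7, 20.2, 23.9 and 34.9 in Ctrl + Morphine mice, 41.0, 54.6, 67.8, 40.2 and 57.4 in Kdm7a-shRNA + Saline mice, and 36.2, 45.1, 52.5 and 32.9 in Kdm7a-shRNA + Morphine mice. The saline groups did not overlap, and the lowest morphine knockdown mouse lay inside the control range. Taf6l rose under saline (0.94, SE 0.23, adjusted p = 0.00913) and in the average (0.74, SE 0.16, adjusted p = 0.00203), was 0.54 under morphine (adjusted p = 0.119) and had an interaction of -0.40 (adjusted p = 0.704). The saline call was lost without Ctrl + Saline replicate 2 (0.82, adjusted p = 0.0514). Without the 4 mice high in microglia markers Taf6l was 0.60 under saline (adjusted p = 0.146) and 0.51 in the average (adjusted p = 0.0459), and neither passed. Mta2, a subunit of the NuRD deacetylase complex, rose under saline (0.69, SE 0.20, adjusted p = 0.0228), from 7.005, 4.39 and 4.50 CPM in Ctrl + Saline mice to 6.86 to 9.15, with overlap. That call was lost without Ctrl + Saline replicate 2 (0.57, adjusted p = 0.117) or replicate 3 (0.57, adjusted p = 0.124), and with a replicate block (adjusted p = 0.0519), and the interaction of Mta2 was -0.87 (adjusted p = 0.221). Mta2 read 8.89, 9.39, 7.55 and 9.95 CPM in Ctrl + Morphine mice, all above the Ctrl + Saline mice. In Kdm7a-shRNA + Morphine mice it read 6.28, 9.11, 9.19 and 6.84. In morphine under the control virus, morphine under the knockdown and the interaction no gene of either list passed with edgeR. At an unadjusted p under 0.05 there were 4, 3 and 4 of 48 other writers and erasers and 8, 3 and 6 of 57 partners, beside 11.7%, 7.02% and 10.7% of all tested genes. DESeq2 passed 2 other writers and erasers in morphine under the control virus, Kmt5c and Sirt7, beside 194 of its 12667 genes, and otherwise 0 genes of either list.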

How the data were processed

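RNA of mPFC from 16 mice was read as Nanopore cDNA with a cDNA-PCR kit on PromethION. For each gene the authors deposited a count of reads, made after mapping to mm10 with minimap2. The deposited CPM is the same count over the total of its mouse, as checked to within 4.99e-06, and was used only for this check.

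Tests were run on the counts with edgeR 4.0.16 in R 4.3.3 (the authors give edgeR 3.8.6). All 16 mice were in 1 fit with 1 coefficient per group, trimmed-mean (TMM) factors and quasi-likelihood tests. filterByExpr kept 18826 of 26625 genes, and p was adjusted over them by the method of Benjamini and Hochberg. limma was 3.58.1 and DESeq2, an alternative, 1.42.0. The code was tested on simulated data, with fold sizes and a criterion that were revised after an earlier criterion was narrowly missed. Lengths, GC content and exon overlaps came from GENCODE vM21, which matched 19063 genes.

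The members and lists were chosen with earlier results of these data known. Values in every mouse are given for members that passed in any of 6 comparisons and, in each role class, for the member with the smallest unadjusted p in the knockdown average and the member with the highest mean CPM. Kdm7a is given as a check of the labels. Of the other lists, genes that passed in a knockdown comparison are named, at most 3 in each direction.

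Alternatives were other scalings, filters, tools, a replicate block, known genes only, each comparison's groups alone, the limit on adjusted p alone, and leaving out each mouse. Offsets by transcript length followed a loess curve. Offsets by GC content, offsets by length and GC together and leaving out mice high in microglia markers were chosen after seeing the data. Chi-square per degree of freedom was 8.33 to 51.2 over 25 pairs within groups, as separate mice are expected to exceed counting error.

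Totals were 6596991 to 12418112 per mouse, and the member with the fewest counts had 5 to 24. These are PCR reads, so a precision taken from such counts is the counting error only.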

Additional observations from a re-analysis of the deposited data

Results flagged for a closer look

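In 114 groups of values, a mouse far from the others of its group was looked for, and 7 values stood apart. The rule needs at least 4 mice in a group, so the Ctrl + Saline mice (n = 3) were not examined. By chance the rule picks about 1 in 20 groups, so that this number is in the range of chance. Kmt2a in Ctrl + Morphine replicate 4 was 76.92 CPM, with the nearest mouse at 55.61. Without this mouse the Kmt2a average was under the fold limit. Kmt2c in Ctrl + Morphine replicate 2 was 14.09 CPM (nearest 16.37), Crebbp in Kdm7a-shRNA + Morphine replicate 3 was 17.01 (nearest 21.6) and Mta2 in Kdm7a-shRNA + Saline replicate 4 was 6.862 (nearest 8.65). The sum of oligodendrocyte precursor markers was 38.64 CPM in Ctrl + Morphine replicate 1 (nearest 23.25) and 24.18 in Kdm7a-shRNA + Saline replicate 4 (nearest 37.56). The total count of Kdm7a-shRNA + Saline replicate 5 was 10280000 (nearest 9256000). Why these values stood apart was not tested.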

How the results depend on the processing

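Under saline the count of 3 passing members (beside 3151 of 18826 genes) became 5 with library size only (3309 genes, Hdac5 lost and Suz12, Setd7 and Ash1l added), 1 with length-dependent offsets (3111), 2 with GC-dependent offsets (2935), 0 with length and GC offsets (2912) and 8 with adjusted p under 0.05 alone (3821). Under morphine the count of 1 (beside 1448 genes) became 2 with library size only (1640), with at least 10 counts in every mouse (697 of 13547, 41 members kept) and with known genes only (424 of 14153), each time by Kmt2a. It became 0 with a fit of the compared groups alone (924), with length-dependent offsets (1412) and with length and GC offsets (1434), and 3 with adjusted p under 0.05 alone (1744). In the average the count of 2 (beside 3316 genes) became 0 with length-dependent offsets (3246), with length and GC offsets (3224) and without the mice with a microglia marker sum over 1500 CPM (1851 of 18858), and 6 with adjusted p under 0.05 alone (5190). The interaction had 0 (beside 16 genes), and 3 with DESeq2 (240 of 10605). Both morphine comparisons had 0 in every setting. The cause was not tested. Library size only also shifted the median of all genes by -0.13 under saline and -0.11 under morphine. Nothing is therefore read from the calls added or lost with it.

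Leaving out 1 mouse gave 2 (without Ctrl + Saline replicate 3, beside 1424 of 19242 genes, or Kdm7a-shRNA + Saline replicate 1, beside 2866 of 18792) to 5 (without Ctrl + Saline replicate 1, beside 3099 of 19425) under saline. Under morphine it gave 0 (without Ctrl + Morphine replicate 4, beside 578 of 18661, or Kdm7a-shRNA + Morphine replicate 1, beside 913 of 18771) to 2 (without Ctrl + Morphine replicates 1 or 2 or Kdm7a-shRNA + Morphine replicates 2 or 4, beside 933 of 18694, 1627 of 18767, 1289 of 18783 and 2066 of 18804). In the average it gave 1 (without Ctrl + Saline replicate 2, Ctrl + Morphine replicate 4 or Kdm7a-shRNA + Morphine replicates 2 or 3) to 2 (all others, such as without Ctrl + Saline replicate 1), beside 2753 (without Kdm7a-shRNA + Morphine replicate 3) to 3738 genes (without replicate 4). In the interaction it gave 0 (without Ctrl + Saline replicate 2, for example) to 1 (without Ctrl + Saline replicate 1, Hdac11, beside 266 of 19425). Over these fits Kmt2a ran from -0.79 to -0.62, Kmt2c from -0.95 to -0.67 and Hdac5 from 0.56 to 0.81 under saline, and Kdm5c from -0.76 to -0.53 under morphine. In the average Kmt2a ran from -0.68 to -0.57 and Kmt2c from -0.69 to -0.53.

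The sign of the average turned for Ehmt2 (-0.0166 with GC-dependent offsets), Dot1l (0.0218 with length-dependent offsets), Crebbp (0.017 with length-dependent offsets) and Hdac1 (-0.0304 with length-dependent offsets, -0.026 with length and GC offsets, -0.131 without the mice high in microglia markers). The other 13 members with values in every mouse kept their direction in the average. With library size only, Ehmt2 (-0.034) and Hdac1 (-0.0602) were also below 0, but that scaling shifted the median of all genes by -0.12 in the average, so nothing is read from these signs. Of the members not given in every mouse, some also turned with length-dependent offsets, as the counts by class in the report show.

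With a replicate block the counts were 3, 1, 2, 0, 0 and 0, as without it. The replicate block rests on shared numbers only: only 5 of 21 pairs with the same number correlated above 0.1 (-0.091 to 0.366), and the numbers were therefore not treated as a pairing. As a hint from the data, 8 of 16 mice correlated best with their own number, and the value expected by chance was not computed. Suv39h2, Ezh2, Kat2b and Kdm1b had few counts (lowest 5, 7, 10 and 13), and how far depth limits their results was not tested. A fit of the compared groups alone was not made for the average and the interaction, which use every mouse.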
